A study of Rattus norvegicus with 2 samples.

Results

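The genes described here are the sodium-phosphate cotransporters of the kidney and the proteins that hold or regulate them, 7 genes chosen by name: Slc34a1, Slc34a3, Slc20a1, Slc20a2, Pth1r, Pdzk1 and Slc9a3r1. Of the 29516 gene rows of the deposited table, 5 carry one of these names. A further row, listed as NHRF3_RAT, is described in the table as the regulatory cofactor NHE-RF3, which is the protein of Pdzk1, and was added through that Swiss-Prot entry. Slc20a2 was found under none of the names searched and is not analysed here, which leaves 6 genes. All 6 had a mean of at least 1 FPKM (a level per length of transcript, scaled for library size), as did 14077 genes of the table.

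The soy group is the kidney of F344 rats, an inbred strain prone to chronic kidney disease in old age, that ate food with 14% soy for 4 months. The casein group is the kidney of F344 rats that ate a casein control food, casein being the main protein of milk, for the same time. All rats were taken from a colony kept for studies of ageing; they were put on their diet at 16 months and sampled at 20 months of age. The labels give 1 library per diet and name neither the number nor the sex of the rats behind it. No value given here therefore has a replicate error, and no test across samples was run. In whole kidney, fewer cells of a type and less RNA per cell cannot be told apart.

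Most filtered phosphate is taken back in the proximal tubule, where cotransporters of the brush border carry phosphate into the cell together with sodium. The type II transporters NaPi-IIa (Slc34a1) and NaPi-IIc (Slc34a3) do most of this work in rodents, and the type III transporters PiT-1 (Slc20a1) and PiT-2 (Slc20a2) are found in most tissues. The PDZ-domain proteins NHERF1 (Slc9a3r1) and PDZK1 (Pdzk1) bind the tail of NaPi-IIa and hold it in the membrane. Parathyroid hormone, acting through its receptor (Pth1r), causes NaPi-IIa to be withdrawn from the brush border.

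None of the 6 genes differed by as much as 1.5-fold between the diets. Slc34a1, Slc9a3r1 and Pdzk1 had higher values with soy, by 15.1% to 23.8%. Slc34a3 had the lowest ratio of the 6, at 1.42-fold lower with soy. Slc20a1 and Pth1r lay within 5% of their casein values. Over all 14077 genes, 11.9% were at least 1.5-fold apart in either direction, 3.56% higher and 8.36% lower with soy, so 0 of 6 is not far from that background. The median log2 value of soy over casein, computed as log2((soy FPKM + 0.1)/(casein FPKM + 0.1)), was 0.08 for the 6 genes and 0.01 for all 14077. The authors' deposited table marks none of the 6 as different, while it marks 0.848% of the 17450 rows it tested, 0.103% as higher and 0.745% as lower with soy.

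**Figure D1:**
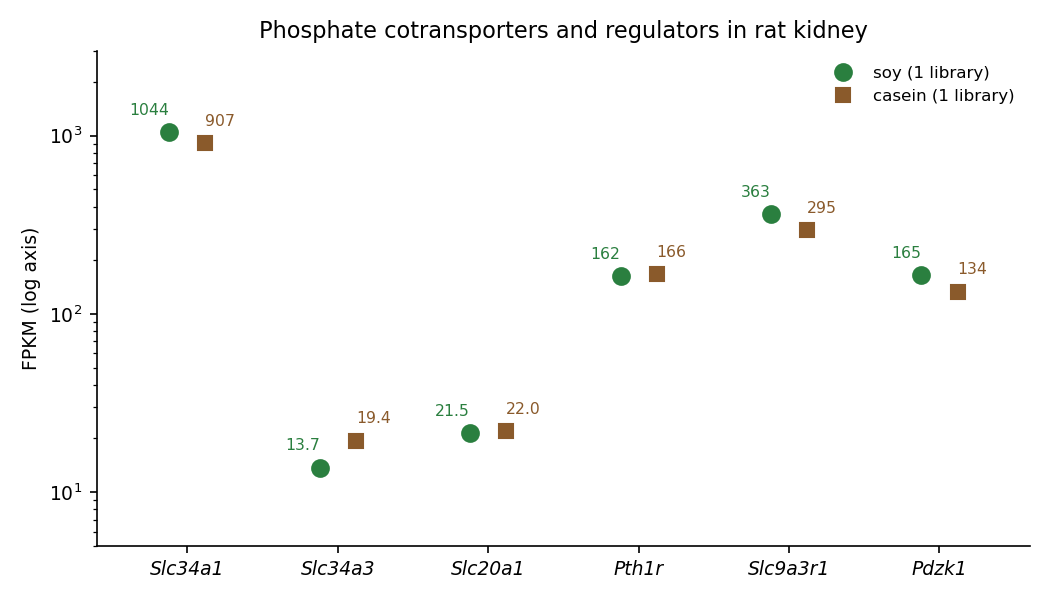
FPKM of the 6 genes on a log axis, with the soy library as circles to the left of the casein library as squares. Slc34a1 stood far above the other 5 under both diets, at 1044 FPKM with soy and 907 with casein, and Slc34a3 was the only one of the 6 whose casein value lay clearly above its soy value.

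Slc34a1, the main phosphate transporter gene of the proximal tubule, had 1044 FPKM in the soy kidney and 907 FPKM in the casein kidney. Its soy value was thus 1.15-fold higher, a log2 value of 0.20. It ranked 66th of all rows by level with soy and 77th with casein. The table places it on chromosome 17 from 15261697 to 15277902, in coordinates of a build that the sources used here do not name. Of the 14077 genes, 37.1% had a larger absolute log2 value than Slc34a1. The authors' deposited table gives it p = 0.695.

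Slc34a3, known in rodents as the type II transporter gene most active around weaning, had 13.7 FPKM with soy and 19.4 FPKM with casein, 1.42-fold lower, or -0.50 on the log2 scale. In the same coordinates it occupies chromosome 3 from 3393501 to 3399042. This was the largest absolute difference of the 6, and 14.3% of the 14077 genes had a larger one. The authors' deposited table gives it p = 0.0620 and q = 0.812, so it was not called there. Because the values of Slc34a1 and Slc34a3 lay apart in opposite directions, the level of Slc34a1 was 76.2 times that of Slc34a3 in the soy library, against 46.7 times in the casein library.

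Slc20a1, which encodes the widely expressed type III transporter PiT-1, had 21.5 FPKM with soy and 22.0 FPKM with casein. Its log2 value was -0.03, and 85.7% of the 14077 genes had a larger absolute one. It lies on chromosome 3 from 116813987 to 116828033. The sign of so small a value depended on the scaling, since it became 0.03 when the values were centred on housekeeping genes.

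Within each library the order of the 3 cotransporters among the 6 genes was the same, with Slc34a1 first, Slc20a1 next and Slc34a3 last. In the sum of their FPKM, 1079 with soy and 948 with casein, Slc34a1 made up 96.7% with soy and 95.6% with casein. Slc20a2, for which no row was found, is not in this sum. Slc20a1 made up 1.99% with soy and 2.32% with casein. Slc34a3 made up 1.27% with soy and 2.05% with casein. Slc20a1 and Slc34a3 were close in the casein library, at 22.0 and 19.4 FPKM, and no spread is known against which that gap could be judged.

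The stretches before the starts of Slc34a1 and Slc34a3 are shown because the 2 genes serve the same membrane and their values went opposite ways. They are RefSeq sequence of the build GRCr8, 250 bases up to the base before the gene start, read along the gene. Capitals mark matches, on either strand, to any of 5 motifs. These were a site of HNF4 factors, written CAAAGTCCA, and the half-site of many nuclear receptors, written AGGTCA, which the vitamin D receptor also binds. The others were the E-box, spelled CACGTG, the Sp1-type box, spelled GGGCGG, and the core promoter box, spelled TATAAA. A match on the other strand appears as the reverse complement, and no matches in the 4 stretches printed overlap.
Slc34a1 (GRCr8 chr17:9238984-9239233, minus strand): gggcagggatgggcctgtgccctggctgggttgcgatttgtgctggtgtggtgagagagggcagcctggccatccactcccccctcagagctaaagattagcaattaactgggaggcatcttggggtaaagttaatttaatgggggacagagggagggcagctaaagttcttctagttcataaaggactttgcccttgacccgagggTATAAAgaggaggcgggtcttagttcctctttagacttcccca
Slc34a3 (GRCr8 chr3:28447998-28448247, minus strand): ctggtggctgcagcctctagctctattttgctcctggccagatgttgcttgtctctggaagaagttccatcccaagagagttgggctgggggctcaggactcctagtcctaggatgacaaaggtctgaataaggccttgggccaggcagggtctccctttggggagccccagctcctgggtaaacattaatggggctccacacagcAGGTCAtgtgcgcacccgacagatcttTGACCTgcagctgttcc
The Slc34a1 stretch holds a TATAAA that begins 43 bases before the start. TATAAA occurs in 12.9% of 33469 RefSeq stretches of the same length. The Slc34a3 stretch holds 2 matches to AGGTCA, one on each strand, 44 and 17 bases before the start, and AGGTCA occurs in 14.1% of all stretches. CACGTG, which 5.59% of all stretches hold, is in none of the 4 printed. A match describes letters and does not show that a factor binds there.

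The 2 scaffold genes had nearly equal ratios. Slc9a3r1, which encodes NHERF1, had 363 FPKM with soy and 295 FPKM with casein, 1.23-fold higher (log2 0.30). Pdzk1, whose product carries several PDZ domains and binds a range of brush border transporters, had 165 FPKM with soy and 134 FPKM with casein, 1.24-fold higher (log2 0.31). The level of Slc9a3r1 was 2.20 times that of Pdzk1 in the soy library and 2.21 times in the casein library. Their ratios were also near that of their cargo, since Slc34a1 stood at 2.88 times Slc9a3r1 with soy and 3.07 times with casein. Of the 14077 genes, 25.5% had a larger absolute log2 value than Slc9a3r1 and 24.7% a larger one than Pdzk1. The authors' deposited table gives p = 0.283 for Slc9a3r1 and p = 0.231 for Pdzk1 and marks neither. Slc9a3r1 lies on chromosome 10 from 105237636 to 105254750 and Pdzk1 on chromosome 2 from 191659525 to 191675995 in the table's coordinates.

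The stretches before these 2 genes are shown for the same reason in reverse, as their values lay apart in the same direction and by nearly the same ratio. RefSeq lists Slc9a3r1 under its newer symbol Nherf1.
Slc9a3r1 (GRCr8 chr10:100901915-100902164, plus strand): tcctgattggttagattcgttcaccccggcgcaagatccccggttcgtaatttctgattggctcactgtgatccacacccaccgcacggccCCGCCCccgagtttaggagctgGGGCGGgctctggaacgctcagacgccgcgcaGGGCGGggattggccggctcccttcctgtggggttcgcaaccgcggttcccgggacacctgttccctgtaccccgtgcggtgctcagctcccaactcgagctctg
Pdzk1 (GRCr8 chr2:187064745-187064994, plus strand): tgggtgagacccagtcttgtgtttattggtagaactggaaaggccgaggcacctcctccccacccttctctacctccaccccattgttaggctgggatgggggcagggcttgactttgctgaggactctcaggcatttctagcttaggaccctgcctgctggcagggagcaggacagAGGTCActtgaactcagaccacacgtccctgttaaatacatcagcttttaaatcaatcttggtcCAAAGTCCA
They shared no motif among the 5 searched. Slc9a3r1 holds 3 matches to GGGCGG, which 30.5% of all stretches contain at least once. Pdzk1 holds an AGGTCA 73 bases before the start and a CAAAGTCCA that ends at the base before it, and 0.338% of all stretches contain CAAAGTCCA. That motif was added to the search after the Pdzk1 stretch had been seen. Of the 7 genes, 5 have an entry in the RefSeq promoter table. The stretch of Pth1r, not printed, holds 7 matches to GGGCGG, some of them overlapping. It is 77.6% G or C and that of Slc9a3r1 64.8%, against a median of 51.2% over all stretches. The stretch of Slc34a2, a further type II gene described below, holds none of the 5 motifs. Any link between these motifs and the diet values was not tested.

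Pth1r, the receptor through which parathyroid hormone acts on the tubule, had 162 FPKM with soy and 166 FPKM with casein. Its log2 value of -0.04 became 0.02 when centred on housekeeping genes, and 84.9% of the 14077 genes had a larger absolute value. It lies on chromosome 8 from 115099762 to 115119362. Slc34a1 stood at 6.43 times the level of Pth1r with soy and 5.45 times with casein.

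**Figure D2:**
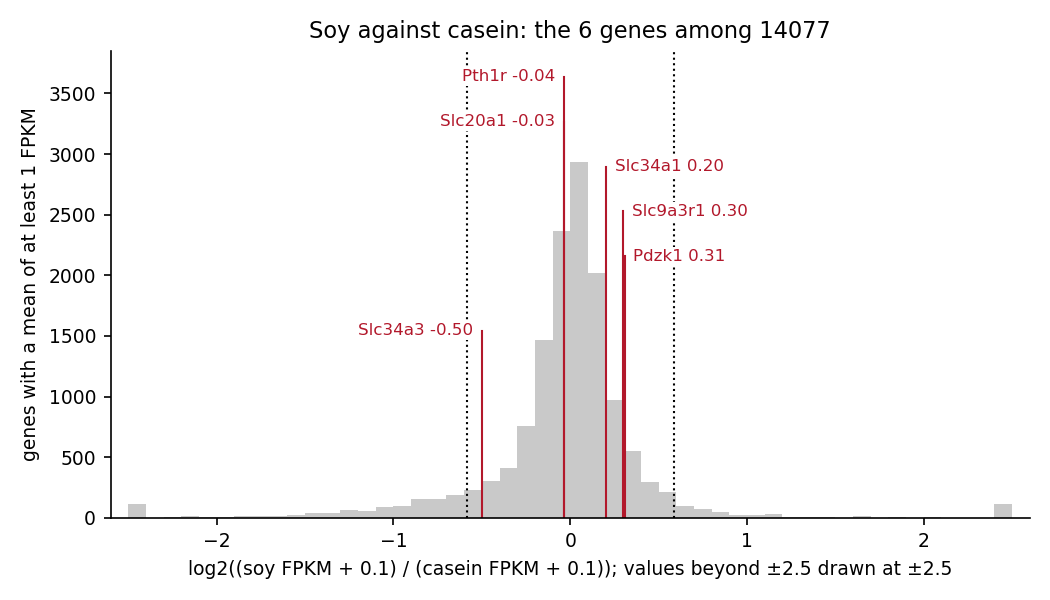
Histogram of the log2 value of soy over casein for 14077 genes that averaged 1 FPKM or more, with the 6 genes as red lines whose heights carry no value and the 1.5-fold limits dotted. All 6 genes lay inside the limits, from -0.50 for Slc34a3 to 0.31 for Pdzk1.

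At matched expression the background was lower. Of 1176 genes that averaged 100 FPKM or more, as Slc34a1, Slc9a3r1, Pth1r and Pdzk1 did, 5.61% were at least 1.5-fold apart, 2.21% higher and 3.4% lower with soy. Of 6423 genes between 10 and 100 FPKM, where Slc20a1 and Slc34a3 lay, it was 5.93%, with 2.2% higher and 3.74% lower. For likeness, the distance between log2(FPKM + 0.1) values was taken over the 2 libraries, among 11156 genes with a symbol and status OK. The nearest genes to Slc34a1 were the beta-defensin gene Defb1 (1033 FPKM with soy, 924 with casein, distance 0.03), the superoxide dismutase gene Sod1 (1077 with soy, 930 with casein, distance 0.06) and the cytochrome oxidase subunit gene Cox4i1 (988 with soy, 929 with casein, distance 0.09). The nearest to Slc34a3 were Map7d1, a gene of a microtubule-associated protein, the proteasome activator gene Psme2 and the growth factor gene Pdgfb, at distances of 0.04. A distance over 2 libraries reflects level as well as difference.

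The wider network of phosphate handling was described with 8 lists of 91 further genes, of which 81 had a row and 73 a mean of at least 1 FPKM. Of these 73, 2 were at least 1.5-fold higher with soy, Stc2 and Igf1. Another 4 were at least 1.5-fold lower, among them Slc34a2, Pthlh and Arrb2. The other 67 lay within 1.5-fold. These counts, and those of each list below, stand beside the 3.56% higher and 8.36% lower of all genes. The median log2 value was 0.09 over the 73 genes, against 0.01 over all 14077. The authors' deposited table marks 1 of the 73 higher, Stc2, and 1 lower, Slc34a2.

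Among other transporters of phosphate and related genes, 13 of 14 lay within 1.5-fold, and the exception was the remaining type II transporter gene. Slc34a2 encodes NaPi-IIb, known best from the small intestine and the lung. It had 23.7 FPKM in the soy kidney and 52.2 FPKM in the casein kidney, 2.20-fold lower, a log2 value of -1.14. The authors' deposited table marks it with q = 0.000513, and their table of 145 marked transcripts lists its transcript with the same FPKM values and q = 0.000685. None of the 6 genes has a transcript in that table. Both q values of Slc34a2 come from the same 1 library per diet, so they hold no measure of variation between libraries. The transcript values are not a second measurement. In the casein library Slc34a2 stood at 2.69 times the level of Slc34a3, against 1.73 times in the soy library. The level of Slc34a1 was 44.1 times that of Slc34a2 with soy and 17.4 times with casein. With Slc34a2 in the sum of cotransporters, a variant added after its value had been seen, the share of Slc34a1 was 94.7% with soy and 90.6% with casein.

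**Figure D3:**
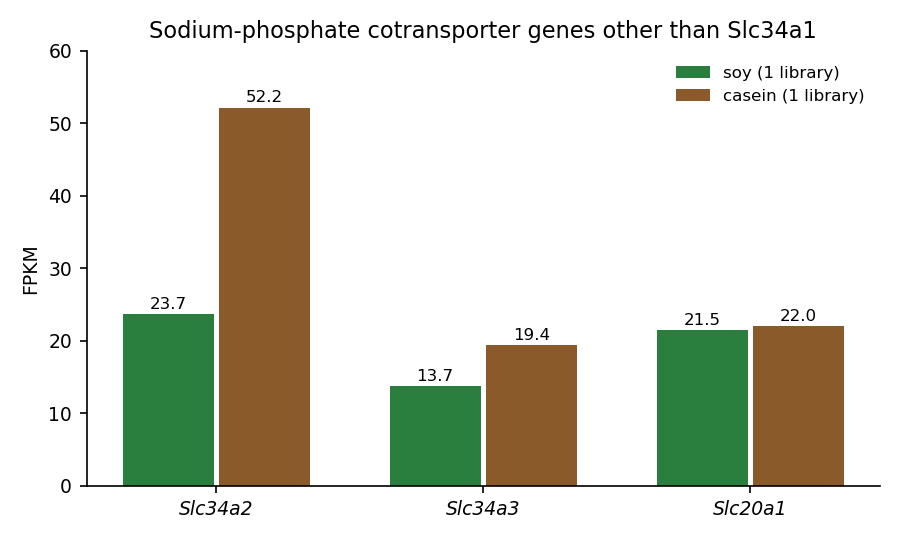
FPKM of the 3 measured type II and type III sodium-phosphate cotransporter genes below Slc34a1, as bars from 0, with soy to the left of casein. Slc34a2 had 23.7 FPKM with soy and 52.2 with casein, Slc34a3 had 13.7 with soy and 19.4 with casein, and Slc20a1 had 21.5 with soy and 22.0 with casein.

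Hormone receptors of the phosphate axis lay within 1.5-fold in 9 of 9 measured cases, with a median log2 of 0.09. The growth hormone receptor gene Ghr came nearest to the limit, at 61.0 FPKM with soy and 42.5 with casein. The receptor genes Fgfr3 (17.4 FPKM with soy, 14.6 with casein) and Casr, the calcium-sensing receptor (16.0 with soy, 13.7 with casein), followed. Kl, which encodes the klotho coreceptor of FGF23 and is named here after its value had been seen, had 34.6 FPKM with soy and 32.6 with casein.

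Of the ligands and the genes that process them, 6 of 12 had a mean of at least 1 FPKM, with a median log2 of 0.45. Stc2 encodes stanniocalcin 2, a secreted glycoprotein reported to lower phosphate uptake in cultured kidney cells. It had 64.5 FPKM with soy and 20.1 with casein, 3.21-fold higher. The authors' deposited table gives it q = 2.7e-06, again from 1 library per diet. The growth factor gene Igf1, whose product is known to raise phosphate reabsorption, had 14.7 FPKM with soy and 8.37 with casein, 1.76-fold higher. Pthlh, whose product activates the same receptor as parathyroid hormone, had 3.22 FPKM with soy and 5.15 with casein, 1.60-fold lower. The authors' deposited table marks neither Igf1 nor Pthlh. Pth itself was listed at 0 in both libraries. Of the vitamin D enzymes, Cyp24a1, which breaks down the active hormone, had 14.6 FPKM with soy and 18.9 with casein. The liver-type 25-hydroxylase gene Cyp2r1 had 4.04 FPKM with soy and 3.17 with casein. Cyp27b1, the other gene of that list, was found under none of the names searched.

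Downstream of the parathyroid hormone receptor, 15 of the 16 signalling genes with a row lay within 1.5-fold, with a median log2 of 0.08. The exception was Arrb2, which encodes beta-arrestin 2, at 7.59 FPKM with soy and 11.5 with casein, 1.52-fold lower. Gnas, Prkar1a and Pde4d, also on that list, were found under none of the names searched. All 12 genes of scaffolds and trafficking lay within 1.5-fold, with a median log2 of 0.03. Pdzd3, which encodes the further NHERF family member NHERF4, had 26.2 FPKM with soy and 19.0 with casein. The membrane-cytoskeleton linker gene Msn (70.8 FPKM with soy, 84.1 with casein) and the endocytic adaptor gene Dab2 (103 with soy, 117 with casein) had slightly lower values with soy. Other known partners of these scaffolds lay within 1.5-fold for 8 of 9 genes. Their median log2 was 0.17, but it was 0.069 with no limit on low values and 0.43 at a mean of 5 FPKM or more. Of 5 transcription factor genes none reached 1.5-fold, and their median log2 was 0.24. Hnf4a (164 FPKM with soy, 124 with casein) and the coactivator gene Ppargc1a (17.6 with soy, 14.8 with casein) were among the higher ones.

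**Figure D4:**
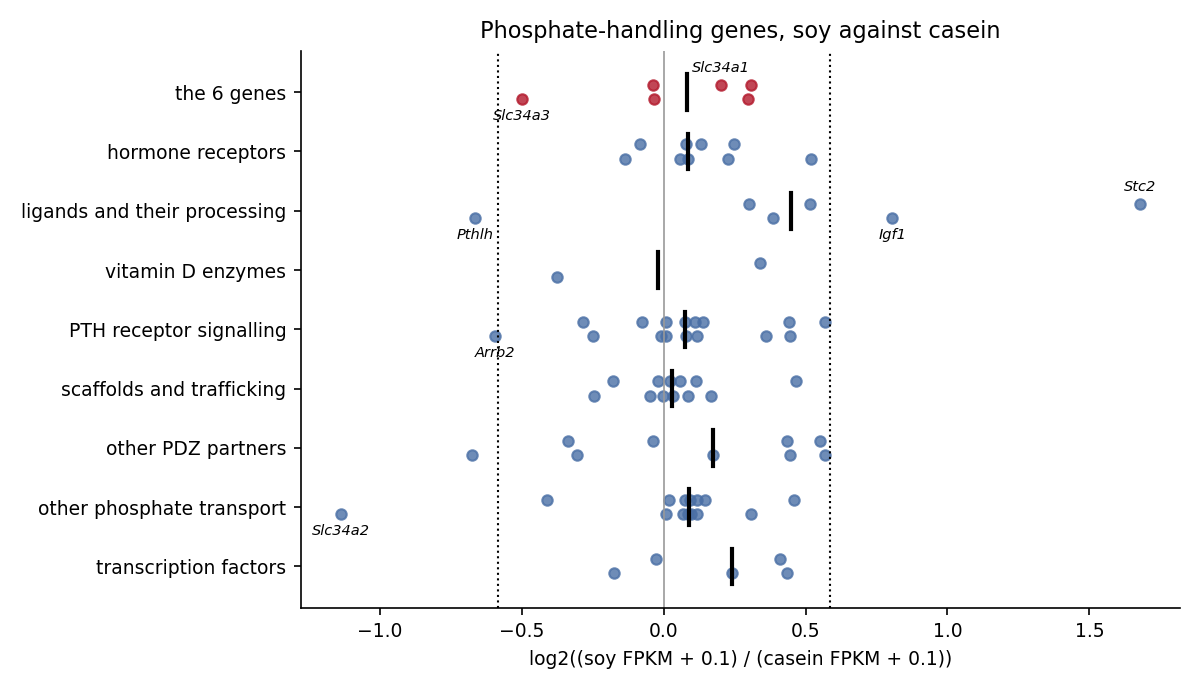
Log2 value of soy over casein for the 6 genes (red) and for each measured gene of 8 lists (blue), with medians as black bars and the 1.5-fold limits dotted. Of 73 list genes, 6 lay outside the limits, and Stc2, Igf1, Pthlh, Arrb2 and Slc34a2 are named there together with Slc34a1 and Slc34a3.

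The tissue was checked against markers of kidney cell types. All 14 proximal tubule markers averaged 1 FPKM or more, and they went different ways. Of 8 genes listed for the early part, 4 were at least 1.5-fold lower with soy (Slc5a2, Slc5a12, Slc7a7 and Slc4a4). The megalin gene Lrp2 alone was at least 1.5-fold higher, and the list median log2 was -0.55. Cubn and Aqp1, like Lrp2 not confined to the early part, also had higher values (log2 0.54 and 0.40). The other 5 had lower ones. The 8 genes summed to 903 FPKM with soy and 774 with casein, of which the water channel gene Aqp1 made up 790 and 598. All 6 markers of the late part had higher values in the soy kidney, and 2 passed 1.5-fold. Their median was 0.44, and their summed level was 3422 FPKM with soy and 2349 with casein. No proximal marker was at 0.

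Slc34a3 lay below 10 and above 4 of the 14 proximal markers in its log2 value, the 4 below being those lower by at least 1.5-fold. Slc34a1 lay below 8 and above 6 of them, and Slc9a3r1 and Pdzk1 lay in the middle, with 7 on either side. Markers of other segments and cell types also differed between the libraries. All 4 measured thick ascending limb markers had higher values with soy (median log2 0.43), and they summed to 4729 FPKM with soy and 3614 with casein. Of 4 measured distal convoluted tubule markers, 2 were at least 1.5-fold lower (median -0.50), with a sum of 284 FPKM with soy and 388 with casein, and Pvalb was listed at 0 in both libraries. The medians were 0.27 for 6 collecting duct markers, 0.23 for 4 endothelial markers and -0.20 for 5 podocyte markers. The 5 leukocyte markers had a median log2 of -1.02 and summed to 774 FPKM with soy and 1095 with casein, most of it from Cd74, and 4 of the 5 were at least 1.5-fold lower. The 5 fibroblast markers ran from -1.48 to 0.01 on the log2 scale and summed to 137 FPKM with soy and 190 with casein. The 3 that were at least 1.5-fold lower were the collagen genes Col1a1, Col1a2 and Col3a1. Pdgfra (log2 0.01) and Dcn (log2 -0.20) lay within the limit. These marker values do not tell cell numbers from RNA per cell, and their relation to the values of the 6 genes was not tested.

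**Figure D5:**
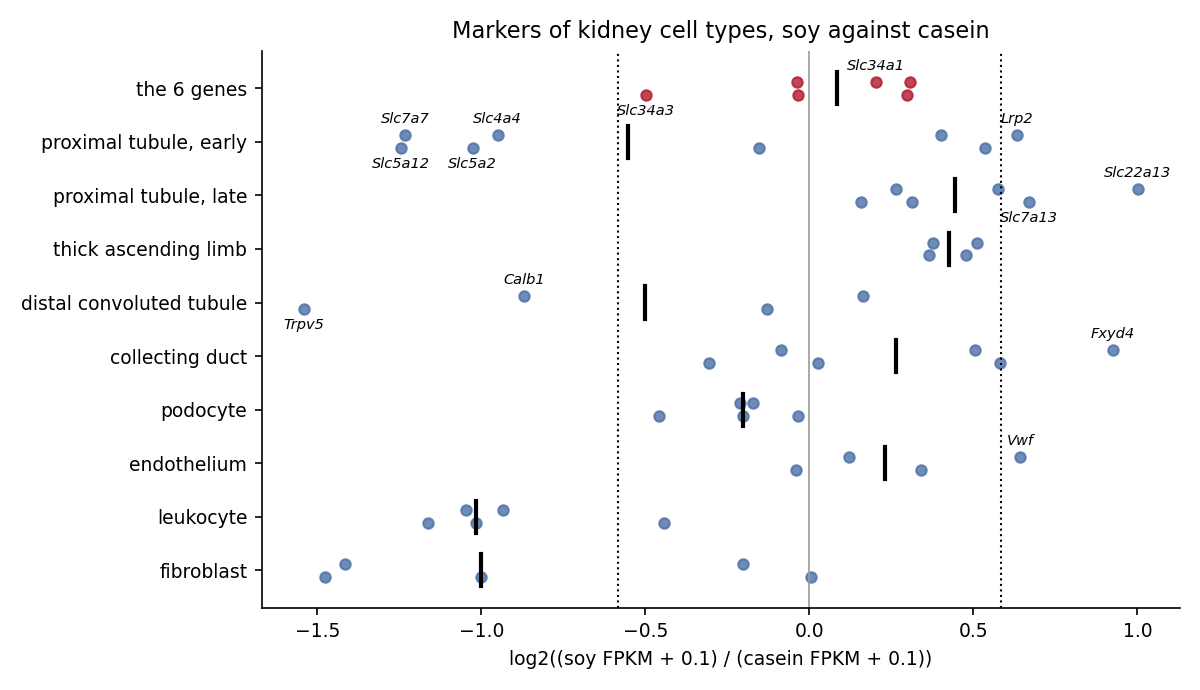
Log2 value of soy over casein for the 6 genes (red) and for markers of 9 cell types or segments (blue), with medians as black bars and the 1.5-fold limits dotted. Early proximal tubule markers fell on both sides of the limits, late ones were all above 0, and leukocyte markers had a median of -1.02.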

How the data were processed

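Kidney RNA of 1 soy and 1 casein library was measured by sequencing of TruSeq libraries, per the labels' protocols. Bowtie, TopHat and Cufflinks are the tools named, with no version, per the submitters' processing notes. The sources used here name no build or filter. Gene rows carry Ensembl identifiers and descriptions, with no release named. For each diet the gene table gives a deposited FPKM value, and the authors' own p-values and q-values, per the file headers. FPKM is not a count, so sequencing depth is unknown, no counting interval could be given, and a value of 0 can be a failed estimate. The FPKM summed to 656248 with soy and 643145 with casein.

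The column headed TRT was taken as soy, since the other is headed as control and the transcript table names the same pair control and soy. Ratios are of FPKM itself, and log2 values add a pseudocount of 0.1. List symbols were matched by name, then by RefSeq synonyms (used for names only), RefSeq peptide or Swiss-Prot entry. Genes were named by a rule that takes the members, list genes apart by at least 1.5-fold or else the 3 largest differences of a list, and the 3 nearest genes of Slc34a1 and of the member with the largest difference. Kl, Pth and the cell type markers are named outside this rule. A few genes named by it are not reported here. The members and lists were chosen with earlier results of these data known. A fold count was tried on simulated data with planted changes well past the 1.5-fold limit and little noise. It was bound to succeed and does not bear on the spread of the real values. Alternatives were 2 other pseudocounts, other limits on the mean, centring, rescaling to TPM, a 2-fold limit, status OK alone and no short RNAs. The software was pandas 2.3.3 and numpy 2.4.6 under Python 3.11.15, with figures from matplotlib 3.10.9.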

Additional observations from a re-analysis of the deposited data

How the results depend on the processing

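The log2 values of the 6 genes moved by less than 0.1 under every alternative run for them, and the counts of 0 higher and 0 lower stayed at 0. Much of this was fixed in advance. Limits on the mean or the status cannot change a gene's own value, and a 2-fold limit cannot add to a count of 0. The 2 centrings and TPM only subtracted constants of 0.01, -0.06 and 0.03, all inside the tolerance of 0.1. TPM cannot change a share. Over these alternatives Slc34a1 ran from 0.17 to 0.26, Slc34a3 from -0.53 to -0.44, Slc9a3r1 from 0.27 to 0.36 and Pdzk1 from 0.28 to 0.37, while Slc20a1 and Pth1r changed sign (-0.06 to 0.03 and -0.07 to 0.02). Of 150 values under alternatives, 139 stayed within these tolerances (0.1 on the log2 scale, 1 percentage point of a share, 1.5 times a count or percentage), which stand in for a replicate spread that does not exist, and 11 moved. In the main setting the median log2 was 0.45 for the ligand list, 0.17 for other PDZ partners and -0.02 for vitamin D enzymes. With no limit on low values, 10.3% of all genes were higher and 18.9% lower. The ligand list then had a median log2 of 0.28 and the list of other PDZ partners 0.069. With a mean of at least 5 FPKM, 4.59% of all genes were lower. The vitamin D enzymes, then Cyp24a1 alone, stood at -0.38 and the other PDZ partners at 0.43. With a 2-fold limit 1.58% were higher and 3.81% lower. With Slc34a2 in the sum, chosen after seeing the data, the share of Slc34a1 was 94.7% with soy and 90.6% with casein. These changes follow from which genes or limits each alternative keeps. No paired analysis was possible because each diet has 1 library. With 1 library per diet and unknown depth, no difference given here, those of Slc34a2 and Stc2 included, can be told from variation between libraries.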
